A study of Setaria italica with 24 samples.

Results

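The 5 genes described here were grouped as markers of foxtail millet root colonization by arbuscular mycorrhizal (AM) fungi, a role not tested here. They encode a subtilisin inhibitor (SETIT_019796mg), a germin-like protein (SETIT_032400mg), a class III chitinase (SETIT_002402mg), a protein kinase (SETIT_028049mg) and a late embryogenesis abundant (LEA) protein (SETIT_039206mg). They were taken by gene identifier, as 5 of the 26785 genes listed in any of the 3 deposited tables, and their annotations are those of the study, which lists them among orthologs of genes conserved in AM hosts. All 5 were listed in every line and passed the filter on low values (a mean normalised read count of 5 or more within a line), and in the lines where mock-treated roots held almost no reads they passed through their AMF-treated libraries. Roots of Setaria italica came from the landrace Hanevalval, the cultivar TT8 and the landrace ISE36, which the sample labels spell ICE36. Within each line, 4 libraries came from mock-treated plants and 4 from plants inoculated with the AM fungus Claroideoglomus etunicatum (AMF-treated), 24 libraries in all. All plants were 2 weeks old when moved to cones, received the same liquid fertilizer, and gave roots 6 weeks post inoculation. RNA came from a cut part of each root system that was not sorted by cell type, so that more colonized root and more transcript per colonized cell cannot be told apart.

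An AM fungus grows between root cells and builds branched arbuscules inside cortical cells, where the plant receives phosphate and nitrogen and gives lipids and sugars in return. Around the arbuscule the host makes a new membrane and remodels its apoplast, the space outside the cell membrane. Class III chitinases cleave chitin, a polymer of fungal cell walls, and germin-like proteins are secreted glycoproteins of the apoplast. In Medicago truncatula, genes of both families are known to be transcribed in arbuscule-containing cells. Subtilisin inhibitors are small proteins that block subtilisin-type serine proteases, a protease family that is also induced in mycorrhizal roots of Lotus japonicus. LEA proteins are hydrophilic proteins best known from maturing seeds and dehydrated tissue, and protein kinases phosphorylate other proteins, but the annotation names no class of kinase for SETIT_028049mg. None of these annotations was tested here.

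Reads assigned to genes ranged from 15013564 to 23333517 per library. The values below are normalised read counts, that is, counts divided by 1 size factor per library, and a value of 1 is close to 1 read. Their scale is shared between lines, since the factors matched a median of ratios over all 24 libraries (ratios of 0.998 to 1.00). Values are not comparable between genes, whose lengths were not used. All lines were aligned to the same reference genome, and how sequence differences between lines affect the count of a gene was not tested. A call required a p of 0.05 or less after Benjamini-Hochberg adjustment and a log2 fold change of 1 or more, up or down, from limma on log2(value + 1) fitted to all genes of a line. Fold changes on that scale understate the change of genes with few reads. The study calls the libraries of a group biological samples, whether each came from 1 plant is not given in the sources used here, and p-values measure the spread between these libraries. Mock replicates 3 and 4 of Hanevalval and mock replicate 4 of TT8 held more reads of the AM marker genes PHT1;9 and RAM2 than the other mock-treated libraries, but not of all 8 AM markers, as given after the single genes, and each result was recomputed without each library in turn.

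The 5 genes were higher in AMF-treated than in mock-treated roots of every line. They were chosen with earlier results of these same libraries known, so the counts and medians below describe them and give no independent support. In each of the 15 combinations of gene and line, every AMF-treated library lay above every mock-treated library. Such a complete separation upward was seen for 11.6% of the genes tested in Hanevalval, 12.6% in TT8 and 17.1% in ISE36. TT8 showed the largest log2 fold change of the 3 lines for each of the 5 genes, from 5.11 to 10.67, although edgeR and DESeq2, fitted to reads, gave ISE36 a larger one than TT8 for the subtilisin inhibitor and the germin-like protein gene. All 5 genes were called higher in TT8 and in ISE36, where 10.6% and 5.79% of the genes tested were called higher. In Hanevalval 2 of 5 were called, the chitinase and the LEA protein gene, against 1.42% of the genes tested. For the 5 genes the log2 fold change had a median of 4.54 in Hanevalval, 7.26 in TT8 and 3.54 in ISE36, beside 0.01, -0.01 and -0.01 over all genes tested.

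**Figure D1:**
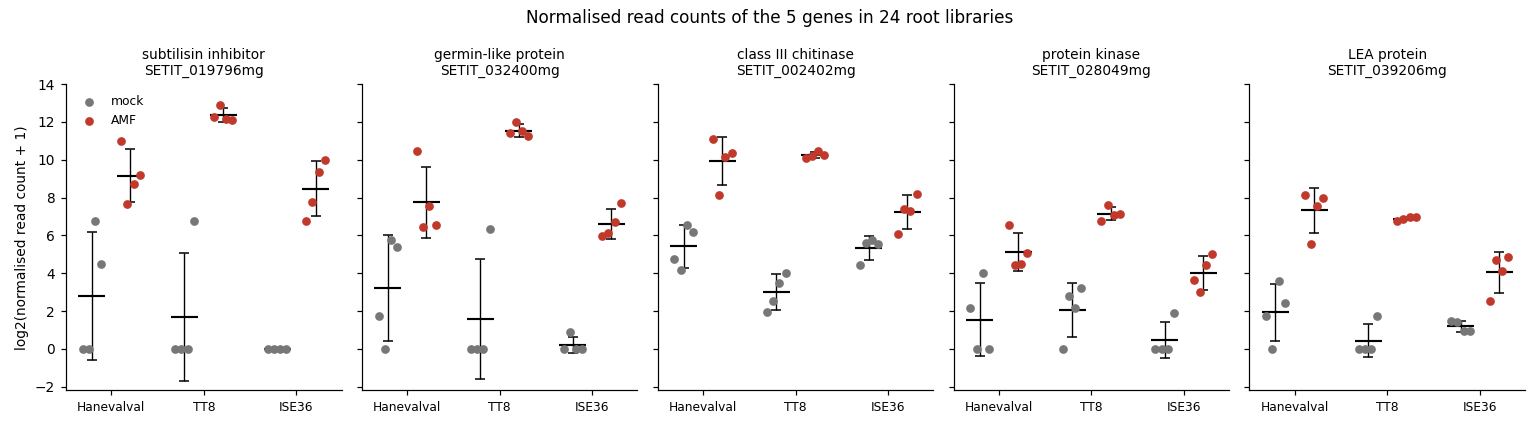
Normalised read counts of the 5 genes, as log2(value + 1), in the 4 mock-treated (grey) and 4 AMF-treated (red) libraries of each line. Points are libraries in the order of their replicate numbers, horizontal bars are means and error bars are SD. In every panel the red points of a line lie above its grey points, with 1 raised grey point (107) for the subtilisin inhibitor in TT8 and 2 raised grey points for the germin-like protein in Hanevalval.

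The class III chitinase gene SETIT_002402mg was the one with a basal level, with reads in all 12 mock-treated libraries. In Hanevalval its mock-treated values were 26.2, 17.1, 93.3 and 71.2 in replicates 1 to 4, and its AMF-treated values were 2199, 283, 1125 and 1311. In TT8 the mock-treated libraries held 2.79, 4.88, 10.2 and 15.4 and the AMF-treated libraries 1098, 1185, 1391 and 1232. In ISE36 the corresponding values were 20.4, 47.2, 52.4 and 46.4 in mock-treated and 65.3, 165, 158 and 289.9 in AMF-treated libraries. The chitinase thus reached overlapping ranges in AMF-treated Hanevalval and TT8 and lower values in ISE36, while the lowest ISE36 AMF-treated library was only slightly above its highest mock-treated one. The log2 fold change was 4.52 ± 0.72 (SE) in Hanevalval (adjusted p = 0.038), 7.26 ± 0.41 in TT8 (adjusted p = 1.7e-05) and 1.90 ± 0.44 in ISE36 (adjusted p = 0.012). As ratios of means these were 23.7-fold, 147-fold and 4.07-fold.

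In mock-treated roots, the chitinase was lower in TT8 (8.33 ± 5.66, SD, n = 4) than in Hanevalval (51.9 ± 36.3, n = 4) or ISE36 (41.6 ± 14.4, n = 4). All 4 mock-treated TT8 values lay below all 8 mock-treated values of the other lines. In a model of the 6 group means over 24 libraries, a comparison added after the values had been seen, the mock-treated log2 level of SETIT_002402mg in TT8 differed from that in Hanevalval by -2.42 ± 0.60 (adjusted p = 0.020) and from that in ISE36 by -2.33 ± 0.60 (adjusted p = 0.0069). Of all genes tested, 3.74% were lower in mock-treated TT8 than in Hanevalval and 15.9% lower than in ISE36 at this threshold. The difference from Hanevalval did not pass without Hanevalval mock replicate 3 (adjusted p = 0.088), Hanevalval mock replicate 4 (0.063), TT8 mock replicate 1 (0.073) or TT8 mock replicate 2 (0.064). Hanevalval mock replicates 3 and 4, with chitinase values of 93.3 and 71.2, also held PHT1;9 at 97.0 and 29.1, against 1.14 and 1.90 in replicates 1 and 2. TT8 mock replicate 4, highest of its group for the chitinase (15.4), held PHT1;9 at 74.6. Whether these mock-treated levels are those of uncolonized roots was not tested.

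The subtilisin inhibitor gene SETIT_019796mg was detected in only 3 of the 12 mock-treated libraries and in every AMF-treated one. In ISE36 it had 0 reads in all 4 mock-treated libraries and values of 109, 219.7, 663 and 995 in the AMF-treated libraries, which is at least 188-fold higher when 3 reads per mock-treated library are taken as the floor. In TT8 it was at 0 in mock replicates 1 to 3 and at 107 in replicate 4, and AMF-treated values were 4939.6, 7576, 4577 and 4375. In Hanevalval mock replicates 1 and 2 were at 0, replicates 3 and 4 held 108 and 21.6, and AMF-treated values were 2061, 203, 414 and 590.5. Mock-treated libraries were thus either at 0 or between 21.6 and 108, and the AMF-treated groups ordered TT8, Hanevalval and ISE36 by mean. The log2 fold change was 10.67 ± 1.38 in TT8 (201-fold by means, adjusted p = 0.0016), 8.47 ± 0.61 in ISE36 (adjusted p = 2.1e-04) and 6.33 ± 1.53 in Hanevalval (25.2-fold, adjusted p = 0.054), where it was not called.

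The germin-like protein gene SETIT_032400mg was close to silent in mock-treated ISE36 and in most mock-treated TT8 libraries. In ISE36 1 read was found over the 4 mock-treated libraries (0.828 in replicate 2), and AMF-treated values were 60.5, 68.6, 103 and 207. The ratio of reads was 502 with a 95% exact counting interval of 89.6 to 19851. In TT8 mock replicates 1 to 3 were at 0 and replicate 4 at 79.4, against 2696, 4147, 2941 and 2408 in AMF-treated roots. In Hanevalval the mock-treated values were 2.28, 0, 52.2 and 41.0 and the AMF-treated values 1394, 85.4, 188 and 92.3, so that 3 of 4 AMF-treated libraries lay within a factor of 4 of the highest mock-treated library. The log2 fold change was 9.96 ± 1.30 in TT8 (154-fold by means, adjusted p = 0.0017), 6.40 ± 0.44 in ISE36 (adjusted p = 2.1e-04) and 4.54 ± 1.42 in Hanevalval (18.4-fold, adjusted p = 0.079), again without a call in Hanevalval.

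The LEA protein gene SETIT_039206mg was the gene with the tightest values in AMF-treated TT8, 107, 117, 123 and 124 (118 ± 7.82, SD, n = 4). Mock-treated TT8 held 2 reads in all, both in replicate 4 (2.37), and the ratio of reads was 242 with a counting interval of 66.6 to 2005. In Hanevalval mock-treated values were 2.28, 0, 11.2 and 4.31 and AMF-treated values 285, 45.7, 189 and 254. In ISE36 every mock-treated library held 1 or 2 reads, with values of 0.904 to 1.77, and AMF-treated values were 4.73, 24.9, 16.3 and 28.0. ISE36 therefore stayed below every AMF-treated library of the other lines. The log2 fold change was 6.45 ± 0.43 in TT8 (adjusted p = 4.7e-05), 5.38 ± 0.83 in Hanevalval (43.5-fold by means, adjusted p = 0.038) and 2.86 ± 0.53 in ISE36 (14.1-fold, adjusted p = 0.0048).

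The protein kinase gene SETIT_028049mg had few reads in mock-treated roots of every line. Mock-treated Hanevalval held 3.42, 0, 14.9 and 0, mock-treated TT8 held 0, 5.85, 3.41 and 8.29, and mock-treated ISE36 had 3 reads in all, in replicate 4 (2.73). With the fungus, Hanevalval reached 92.0, 20.9, 21.0 and 32.2, TT8 106, 192, 136 and 141, and ISE36 11.3, 6.96, 20.6 and 30.8. Every AMF-treated TT8 library lay above all AMF-treated libraries of the other lines. The log2 fold change was 5.11 ± 0.63 in TT8 (32.7-fold by means, adjusted p = 0.0012), 3.54 ± 0.61 in ISE36 (ratio of reads 26.7, counting interval 8.81 to 133, adjusted p = 0.0034) and 3.59 ± 0.94 in Hanevalval (9.06-fold, adjusted p = 0.061), where it was not called.

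The calls in Hanevalval were lost when most single libraries were left out. The adjusted p of the chitinase SETIT_002402mg and the LEA protein gene SETIT_039206mg rose to 0.102 without mock replicate 1, 0.115 without mock replicate 2, 0.053 without mock replicate 4, 0.081 without AMF replicate 1, 0.119 without AMF replicate 3 and 0.148 without AMF replicate 4, and neither gene was then called. With 1 library left out, the log2 fold change stayed at 4.10 to 5.11 for the chitinase and 4.74 to 5.98 for the LEA protein gene. The adjustment runs over all genes, and the 2 genes shared 1 adjusted p in each fit that lost them. The share of all genes called in those fits is not given here, so the loss is not a result about these 2 genes alone. Without mock replicate 3, in contrast, all 5 genes were called, and the number of all genes called higher went from 354 to 1764 (7.10%). In one fit over the 24 libraries all 5 were called as well (8.28% of all genes). That fit shares 1 residual variance per gene over all lines, so the tighter TT8 libraries enter the error for Hanevalval. DESeq2 on the recovered reads called 4 (5.04% of all genes) and gave the germin-like protein gene no adjusted p. The log2 fold change stayed between 1.91 and 7.65 for each of the 5 genes under every alternative. In TT8 and ISE36 all 5 genes remained called whichever library was left out.

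Transcripts of these genes in mock-treated roots were concentrated in a few libraries. Reads of all 5 genes together numbered 300 in Hanevalval mock replicate 3, 128 in Hanevalval mock replicate 4 and 179 in TT8 mock replicate 4, and these were the 3 highest sums among the 12. Of the 12 mock-treated libraries, only Hanevalval mock replicate 3 and TT8 mock replicate 4 held reads of each of the 5 genes. The same 2 libraries were the only ones with reads of RAM1 (SETIT_027708mg), a GRAS transcription factor of arbuscule development, at 18.7 and 4.74. RAM2 (SETIT_035307mg), an acyltransferase that makes lipid for the fungus, stood at 14.9, 12.9 and 19.0 in Hanevalval mock replicates 3 and 4 and TT8 mock replicate 4, and at most at 0.976 in the other 9. The mycorrhizal phosphate transporter gene PHT1;9 (SETIT_004288mg) was at 97.0, 29.1 and 74.6 in these 3 libraries and at most at 3.31 in the others.

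Set against the AMF-treated mean of the same line, Hanevalval mock replicate 3 held 5.78% to 35.9% of the level of the 5 genes, with a median of 11.9%, and 18.7%, 21.5% and 16% of the level of PHT1;9, RAM1 and RAM2. In TT8 mock replicate 4 the 5 genes lay between 1.3% and 5.77%, with a median of 2.01%, and the 3 marker genes at 2.83%, 1.97% and 2.23%. The 8 AM marker genes summed to 277, 166 and 619.6 in the 3 libraries, the first 2 within and the last above the range of 157 to 405 in the other 9 mock-treated libraries, and 5 of these markers (STR, STR2, FatM, Exo70I and AMT3;1) had reads in every library. PHT1;9, RAM1 and RAM2 were singled out of the 8 after the values had been seen. In Hanevalval, mock replicates 3 and 4 were also higher than replicates 1 and 2 for FatM (16.8 and 11.9 against 4.56 and 4.75). The same held for Exo70I (48.5 and 29.1 against 7.98 and 19.0). The opposite way went STR2 (4.66 and 3.24 against 21.7 and 20.9) and AMT3;1 (44.8 and 37.7 against 229 and 83.5). STR held 35.3, 38.0, 31.7 and 42.1 in replicates 1 to 4. In ISE36, RAM1 and RAM2 were at 0 in all 4 mock-treated libraries, and the subtilisin inhibitor at 0 as well. The part of these reads in the AMF responses of Hanevalval and TT8 was not tested beyond leaving each library out.

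**Figure D2:**
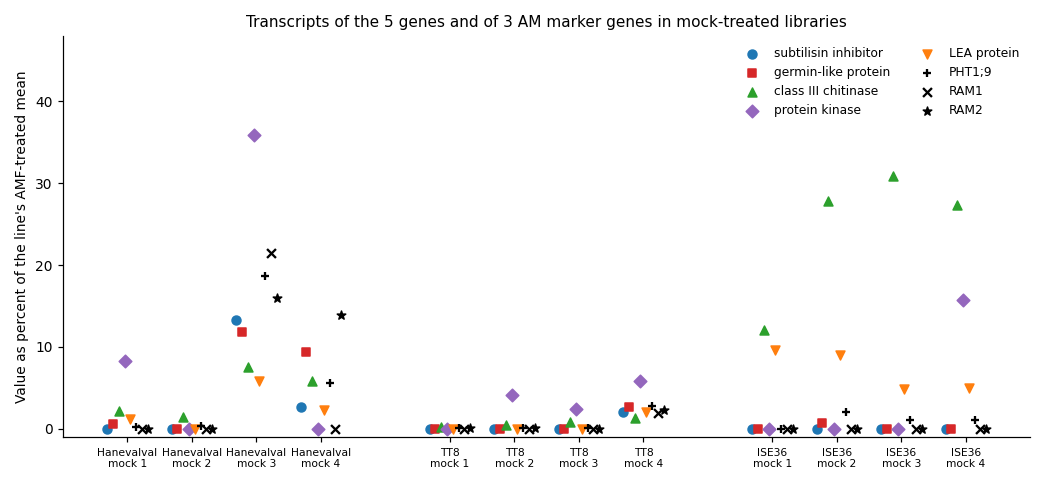
Level of the 5 genes (coloured) and of the AM marker genes PHT1;9, RAM1 and RAM2 (black) in each of the 12 mock-treated libraries, as percent of the mean of the 4 AMF-treated libraries of that line. The 5 genes span 5.78% to 35.9% in Hanevalval mock replicate 3, while the raised green points in ISE36 are the basal level of the chitinase, 12.0% to 30.9%.

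Whether the AMF response differed between lines was tested as an interaction in the model of the 6 group means. The threshold was on the adjusted p alone. This model shares 1 residual variance per gene over all groups, although AMF-treated libraries of TT8 varied less than those of the other lines, as given below. The chitinase SETIT_002402mg and the LEA protein gene SETIT_039206mg responded more strongly in TT8 than in ISE36, by 5.35 ± 0.85 (adjusted p = 7.4e-04) and 3.59 ± 0.93 (adjusted p = 0.016) on the log2 scale. Among all genes tested, 8.10% passed in this direction. The chitinase and the germin-like protein gene SETIT_032400mg responded more strongly in TT8 than in Hanevalval, by 2.74 ± 0.85 (adjusted p = 0.035) and 5.42 ± 1.79 (adjusted p = 0.045), where 8.80% of the genes tested passed. For the chitinase SETIT_002402mg, the mock-treated level was the lower one in TT8, as given above, and the AMF-treated level of TT8 differed from that of Hanevalval by 0.32 ± 0.60 (adjusted p = 0.70), a difference that DESeq2 put at -0.0034.

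The difference of TT8 from Hanevalval was not firm. It passed for the chitinase SETIT_002402mg in 15 and for the germin-like protein gene SETIT_032400mg in 4 of 24 fits with 1 library left out, with adjusted p up to 0.082 and 0.098. The chitinase lost it without Hanevalval mock replicate 3 or 4, Hanevalval AMF replicate 2 or 3, TT8 mock replicate 1 or 2, or TT8 AMF replicate 2, 3 or 4, and the germin-like protein gene kept it only without Hanevalval mock replicate 1 or 2, Hanevalval AMF replicate 1 or TT8 mock replicate 4. The difference of TT8 from ISE36 passed for the chitinase and the LEA protein gene SETIT_039206mg in all 24 such fits, but edgeR did not pass the LEA protein gene (adjusted p = 0.112). For the other pairs of gene and lines the interaction did not pass. In TT8 against Hanevalval it was 4.34 ± 1.97 for the subtilisin inhibitor (adjusted p = 0.14), and 6.02 without TT8 mock replicate 4 (adjusted p = 0.0099), 1.52 ± 1.13 for the kinase (0.38) and 1.06 ± 0.93 for the LEA protein gene (0.46). In TT8 against ISE36 it was 3.56 ± 1.79 for the germin-like protein gene (adjusted p = 0.19), and 5.14 without TT8 mock replicate 4 (0.012), 2.19 ± 1.97 for the subtilisin inhibitor SETIT_019796mg (0.48) and 1.58 ± 1.13 for the kinase (0.37). DESeq2 turned the direction for the subtilisin inhibitor and passed it (adjusted p = 1.7e-08), a fit in which mock-treated ISE36 has 0 reads.

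Between ISE36 and Hanevalval no member passed the interaction test by limma, edgeR gave none either, and 0.0255% of all genes tested passed in either direction. The chitinase SETIT_002402mg and the LEA protein gene SETIT_039206mg had differences of -2.62 ± 0.85 (unadjusted p = 0.0056, adjusted p = 0.36) and -2.53 ± 0.93 (unadjusted p = 0.013, adjusted p = 0.43), so 2 of 5 were below 0.05 without adjustment and at -1 or lower, as were 1.47% of the genes tested. DESeq2 passed the subtilisin inhibitor here, a fit that depends on how 0 reads in mock-treated ISE36 are handled. The other 3 genes differed by -0.06 to 2.15, with SE of 1.13 to 1.97 and adjusted p of 0.85 to 0.99.

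In AMF-treated roots the 5 genes ordered the lines in 2 ways. The subtilisin inhibitor, the germin-like protein gene and the kinase were highest in TT8, then Hanevalval, then ISE36. The means of the subtilisin inhibitor were 5367 ± 1491, 817 ± 845 and 496 ± 409 (SD, n = 4), those of the germin-like protein gene 3048 ± 764, 439.9 ± 638 and 109.8 ± 67.3, and those of the kinase 144 ± 35.9, 41.5 ± 34.1 and 17.4 ± 10.6. For the chitinase and the LEA protein gene, Hanevalval (1229.5 ± 786 and 194 ± 106) and TT8 (1227 ± 123 and 118 ± 7.82) were neighbours and ISE36 stood apart (169.6 ± 92.2 and 18.5 ± 10.4).

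All 5 genes were higher in AMF-treated TT8 than in AMF-treated ISE36, by 2.84 to 4.93 on the log2 scale with adjusted p of 6.9e-04 to 0.038, while 16.2% of the genes tested were higher at this threshold. The subtilisin inhibitor SETIT_019796mg, at 3.88 ± 1.39, lost this call in 7 of 24 fits with 1 library left out, those without TT8 AMF replicate 1, 2, 3 or 4 or ISE36 AMF replicate 1, 2 or 3 (adjusted p of 0.050 to 0.103). It also lost it with a pseudocount of 0.5 (0.064) and by DESeq2 (0.139), and the other 4 genes kept it in all 24 fits and under these settings. Hanevalval exceeded ISE36 for the chitinase SETIT_002402mg by 2.71 (difference ISE36 minus Hanevalval -2.71 ± 0.60, adjusted p = 0.0027) and for the LEA protein gene SETIT_039206mg (-3.27 ± 0.66, adjusted p = 0.0012), in all 24 such fits, beside 9.61% of the genes tested. For the other 3 genes these neighbours did not differ beyond their spread, with differences of -0.67 to -1.13 and SE of 0.80 to 1.39 (adjusted p of 0.35 to 0.79).

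TT8 exceeded Hanevalval for the germin-like protein gene SETIT_032400mg by 3.80 ± 1.27 (adjusted p = 0.020) and for the kinase SETIT_028049mg by 2.02 ± 0.80 (adjusted p = 0.045), beside 22.6% of the genes tested. The former was lost without Hanevalval AMF replicate 2 or 4 (adjusted p = 0.058 and 0.060). The latter was lost in 12 of 24 such fits, among them those without Hanevalval AMF replicate 2, 3 or 4 and those without any single TT8 AMF library (adjusted p of 0.059 to 0.111), and the fits without TT8 mock replicate 3, ISE36 mock replicate 2 or 3 or ISE36 AMF replicate 1 or 3 gave 0.051 to 0.052. The subtilisin inhibitor SETIT_019796mg differed by 3.21 ± 1.39 (adjusted p = 0.068), and passed without Hanevalval mock replicate 3 (0.039), Hanevalval AMF replicate 1 (0.046) or TT8 mock replicate 4 (0.021). For the LEA protein gene SETIT_039206mg the difference was -0.43 ± 0.66 (adjusted p = 0.63).

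Within an AMF-treated group, the 5 genes tended to be high or low in the same libraries. In AMF-treated Hanevalval, replicate 1 was highest and replicate 2 lowest for each of the 5, with ratios of highest to lowest of 4.41 for the kinase to 16.3 for the germin-like protein gene. In ISE36, AMF replicate 4 was highest for each of the 5 and replicate 1 lowest for 4, the exception being the kinase, which was lowest in replicate 2, and the ratios were 3.42 to 9.15. TT8 was more even, with ratios of 1.16 to 1.82. The coefficients of variation over AMF-treated libraries were 6.65% to 27.8% in TT8, 54.4% to 82.5% in ISE36 and 55.0% to 145% in Hanevalval. PHT1;9 had the same highest and lowest library as the germin-like protein gene in Hanevalval and TT8, and RAM2, STR2 and FatM had the same as the subtilisin inhibitor in Hanevalval and ISE36. RAM1 did not follow, with its highest value in replicate 3 of both lines, nor did Exo70I, lowest in Hanevalval replicate 4 and highest in ISE36 replicate 3, nor STR, lowest in ISE36 replicate 3.

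**Figure D3:**
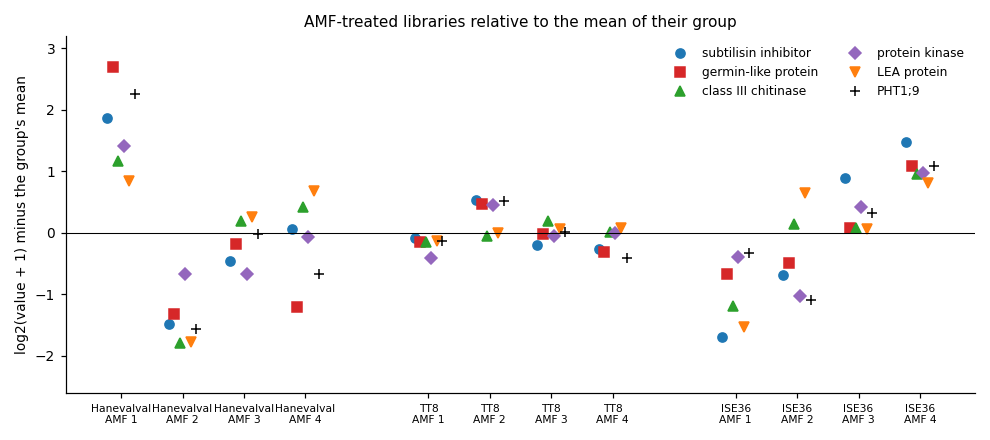
Each AMF-treated library relative to the mean of its group, as the difference in log2(value + 1), for the 5 genes (coloured) and PHT1;9 (black cross). All 5 genes are above 0 in Hanevalval AMF replicate 1 and ISE36 AMF replicate 4 and below 0 in Hanevalval AMF replicate 2 and ISE36 AMF replicate 1, and the TT8 points lie close to 0.

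As a description over the 12 AMF-treated libraries, which share their depth and normalisation, Pearson's r of the deviations from the group means was 0.96 between the chitinase and the LEA protein gene and 0.45 to 0.88 for the other 9 pairs of the 5 genes. The lowest was that between the kinase and the LEA protein gene. PHT1;9 followed the germin-like protein gene (r = 0.96) and the kinase (0.90) most closely and the LEA protein gene least (0.53), whereas FatM, an acyl-carrier thioesterase of the lipid supply, followed the LEA protein gene (0.94) and the chitinase (0.92) most closely and the germin-like protein gene least (0.62). The ratio of the chitinase to the LEA protein gene moved by 1.14-fold among the TT8 libraries, 1.5-fold in Hanevalval and 2.08-fold in ISE36. The ratio of the germin-like protein gene to the LEA protein gene moved by 13.5-fold in Hanevalval.

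Among the 23416 genes that passed the filter in all 3 lines, the genes closest in pattern to each of the 5 were named by Pearson's r of log2(value + 1) over the 24 libraries. For the subtilisin inhibitor SETIT_019796mg they were SETIT_032627mg (r = 0.994), SETIT_005009mg (0.993) and PHT1;9 (0.988). For the germin-like protein gene SETIT_032400mg they were the same 3, with PHT1;9 first (0.990) and then SETIT_032627mg (0.987) and SETIT_005009mg (0.985). By Spearman's rho 1 of these 3 stayed among the closest 3 for the subtilisin inhibitor and 0 for the germin-like protein gene.

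The chitinase SETIT_002402mg was closest to another class III chitinase, SETIT_033231mg (0.969), to the LEA protein gene SETIT_039206mg (0.968) and to SETIT_012377mg (0.964). The LEA protein gene was closest to SETIT_012488mg (0.978), SETIT_039788mg (0.976) and SETIT_012198mg (0.973). The kinase SETIT_028049mg was closest to SETIT_011793mg (0.942), SETIT_032078mg (0.938) and RAM1 (0.936). Over deviations from the 6 group means the same r fell to 0.944 to 0.977 for the neighbours of the first 2 genes, 0.844 to 0.905 for those of the chitinase and the LEA protein gene and 0.655 to 0.723 for those of the kinase. These deviations include the mock-treated libraries. Over the 12 AMF-treated libraries alone, r with PHT1;9 was 0.85 for the subtilisin inhibitor and 0.96 for the germin-like protein gene. There it was 0.96 for the chitinase with the LEA protein gene and 0.52 for the kinase with RAM1. By Spearman's rho 6 of the 15 named neighbours over all 5 genes stayed among the closest 3, and 3 of these were those of the LEA protein gene.

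The study annotates 11 further genes of the same families among its AM-conserved orthologs. In TT8, 7 of the 11 tested were called higher and 1 lower, in ISE36 5 and 2 of the 10 tested, and in Hanevalval 3 and 0 of the 9 tested. The Hanevalval count of 3 higher went to 0 without any 1 of mock replicates 1, 2 and 4 and AMF replicates 1, 3 and 4, and to 5 without mock replicate 3. Over all genes tested 10.6%, 5.79% and 1.42% were called higher and 6.10%, 4.81% and 1.41% lower in TT8, ISE36 and Hanevalval. Without Hanevalval mock replicate 3, 7.10% of all genes were called higher. For the other fits with 1 library left out this share is not given here, so the count of 0 is not a result about these genes alone. The median log2 fold change of the tested genes of this list was 5.10 in TT8, 0.77 in ISE36 and 2.78 in Hanevalval. In Hanevalval no gene of the list was called lower by limma, 1 (SETIT_021498mg) had an unadjusted p under 0.05 and a log2 fold change of -1 or lower, as had 9.55% of the genes tested, and DESeq2 called 2 lower (SETIT_021498mg and SETIT_023002mg), as it did 9.51% of the genes it tested. Reads of near-identical family members could be split or lost in counting, and how multi-mapped reads were counted is not given in the sources used here.

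The 2 further subtilisin inhibitor genes were higher in AMF-treated roots, from a basal level in every mock-treated library. SETIT_011928mg was called in every line, with 7.80 ± 2.35 against 130.1 ± 95.9 in Hanevalval (log2 fold change 3.70, adjusted p = 0.038), 4.43 ± 1.37 against 265 ± 109 in TT8 (5.57, adjusted p = 2.0e-05) and 3.47 ± 1.70 against 32.4 ± 20.4 in ISE36 (2.70, adjusted p = 0.0070). SETIT_023913mg was called in TT8 (6.55, adjusted p = 1.2e-04) and ISE36 (2.25, adjusted p = 0.0012), with 2.78 in Hanevalval (adjusted p = 0.064). Its Hanevalval mock-treated values of 9.12, 13.3, 69.0 and 67.9 were again raised in replicates 3 and 4. The second germin-like protein gene, SETIT_033039mg, was listed for TT8 and ISE36 only, and was called higher in both, with 0, 0.976, 0.853 and 4.74 against 265, 512, 347 and 229.6 in TT8 (7.24, adjusted p = 5.7e-05) and 2.88 in ISE36 (adjusted p = 0.0082).

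The 3 further class III chitinase genes behaved in 3 ways. SETIT_033231mg, the nearest neighbour of SETIT_002402mg, was called higher in Hanevalval (5.45, adjusted p = 0.040), TT8 (7.53, adjusted p = 1.8e-04) and ISE36 (3.66, adjusted p = 9.6e-04). SETIT_002395mg was called higher in Hanevalval (12.6 ± 13 against 485 ± 288, 5.36, adjusted p = 0.040) and TT8 (17.7 ± 4.43 against 626 ± 28.4, 5.10, adjusted p = 4.4e-06). In ISE36 the same gene had 12.4, 8.28, 7.23 and 10.9 in mock-treated and 0.946, 2.98, 2.58 and 15.8 in AMF-treated libraries, a log2 difference of -1.18 (adjusted p = 0.17). Its response differed between ISE36 and Hanevalval by -6.54 ± 1.01 (adjusted p = 0.024) and between TT8 and ISE36 by 6.27 ± 1.01 (adjusted p = 8.5e-04). It was 1 of the 6 genes that passed between ISE36 and Hanevalval.

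SETIT_021498mg, a chitinase gene with high counts in mock-treated roots, was called lower in ISE36 (1219 ± 184 against 371 ± 85.3, log2 fold change -1.73, adjusted p = 4.9e-04). In TT8 it was at 2395 ± 743 against 1526 ± 174 (-0.60, adjusted p = 0.070). In Hanevalval, mock-treated values were 3101, 2943, 241 and 893 and its AMF-treated values 282, 232, 320.3 and 261 (-2.12, adjusted p = 0.096). Mock replicate 3 of Hanevalval therefore lay within the AMF-treated range for this gene.

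The protein kinase gene SETIT_004962mg was called higher in TT8 (3.73, adjusted p = 3.0e-04) and ISE36 (1.71, adjusted p = 0.0081), with 2.81 in Hanevalval (adjusted p = 0.054). SETIT_006522mg was called higher in TT8 (1.18 ± 2.37 against 60.1 ± 12.8, 5.28, adjusted p = 6.3e-04), had too few reads to be tested in Hanevalval and was not listed for ISE36. None of the 3 further LEA protein genes was called higher in any line. SETIT_023221mg was called lower in TT8 (379 ± 97.7 against 161 ± 32.1, -1.21, adjusted p = 0.0089), SETIT_010999mg was called lower in ISE36 (754 ± 69.5 against 373 ± 103, -1.04, adjusted p = 0.0028), and SETIT_023002mg was not called by limma in any line (-1.46 to -0.22, adjusted p of 0.28 to 0.34).

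**Figure D4:**
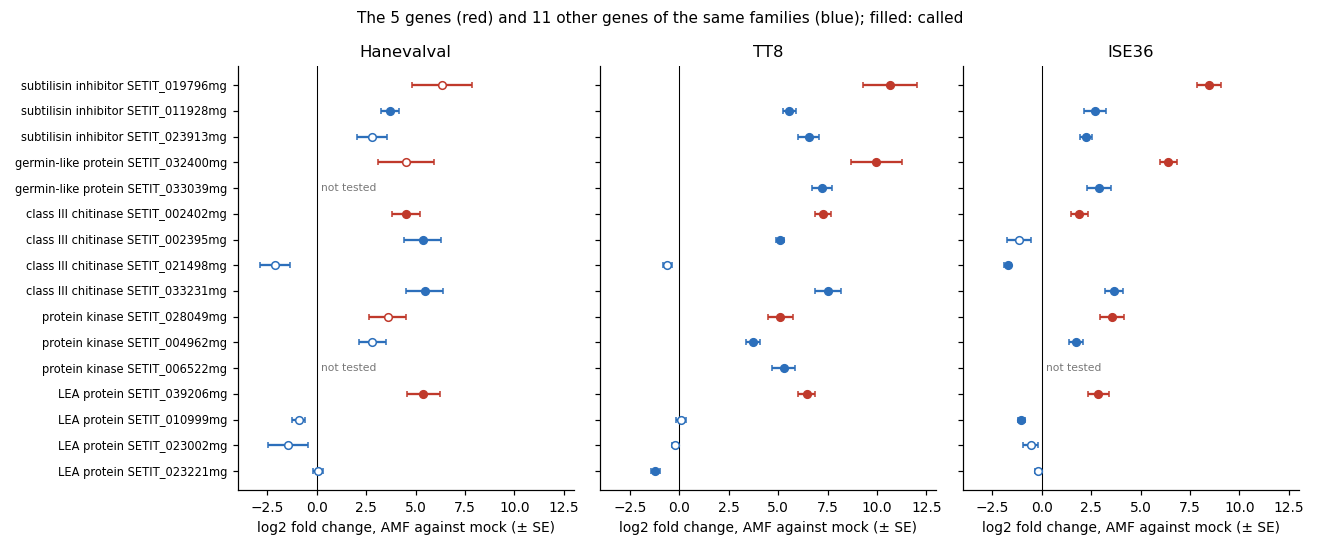
Log2 fold change of AMF-treated against mock-treated roots, with SE, for the 5 genes (red) and the 11 other genes of their families (blue) in each line. Filled points are called genes (adjusted p up to 0.05, log2 fold change of 1 or more in size). In TT8 the points of 12 genes are filled to the right of 0, and the 3 blue LEA protein genes lie at 0.07 or below in all 3 lines.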

How the data were processed

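Root RNA of 24 libraries was sequenced. Per the methods and the submitters' processing notes, the authors trimmed reads with Trimmomatic 0.38, aligned them to the Setaria italica genome 2.0 with HISAT2 2.1.0, counted reads per gene with featureCounts 2.0.0 and used DESeq2 1.26.0. The deposited signal values are gene counts divided by 1 size factor per library. Whole reads were recovered for 100% of 607864 values (tolerance 0.001 reads). Genes listed for a line hold 6 or more reads in 2 or more of its libraries. Columns of no sample numbered 0.

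Lines were compared with limma 3.58.1 (trend) on log2(value + 1) for genes averaging 5 or more, and with a 6-group model of all 24 libraries for differences between lines. edgeR 4.0.16 and DESeq2 1.42.0 on recovered reads, other pseudocounts and scalings, a replicate block and leaving out each library were alternatives (R 4.3.3). Counting intervals are exact (95%) and cover counting error only, and the floor was 3 reads. Steps were tested on simulated counts with the same spread for every gene and 4-fold changes in genes with many reads. Genes with 0 reads in mock-treated roots were not represented. The interaction test of TT8 against Hanevalval recovered 65.0% of these changes, and limma within a line 98.5%. The simulated spread was set and not fitted to these data. In AMF-treated Hanevalval the coefficient of variation of the 5 genes reached 145%, so these rates may not hold for them. Figures used matplotlib 3.10.9. The text names the 5 genes, 11 genes of their families, 8 AM marker genes and the 3 genes of most similar pattern per gene.

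The members and lists were chosen with earlier results of these data known, and the comparison of mock-treated chitinase levels was added after seeing the values. Identifiers of the reference gene table that matched numbered 0, so positions, lengths and sequences, and the check of the root label against tissue markers, were not analysed here.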

Additional observations from a re-analysis of the deposited data

Results flagged for a closer look

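Among 30 groups of 4 libraries (5 genes, 3 lines, 2 treatments), 7 had a library whose gap to its nearest neighbour exceeded Dixon's 95% critical value as a share of the group's range. About 1 in 20 groups of independent, normally distributed values does so by chance. That share need not hold here, since the values were not log-transformed and the 5 genes share their libraries. A group with 3 libraries at 0 reads is always among them when the fourth is not at 0. The subtilisin inhibitor in mock-treated ISE36, at 0 throughout, has no range and could not be flagged. TT8 mock replicate 4 stood apart in this way for SETIT_019796mg (106.6, 90 reads), SETIT_032400mg (79.4, 67 reads) and SETIT_039206mg (2.37, 2 reads). Hanevalval AMF replicate 1 stood above its group for SETIT_032400mg (1394) and SETIT_028049mg (92.0). In mock-treated ISE36, replicate 2 stood apart for SETIT_032400mg (0.828, 1 read) and replicate 4 for SETIT_028049mg (2.73, 3 reads).

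The AMF response differed between lines, by the test of the interaction, in 4 cases. SETIT_032400mg and SETIT_002402mg differed between TT8 and Hanevalval (5.42 and 2.74 on the log2 scale), but passed in only 4 and 15 of 24 fits with 1 library left out. The other cases are SETIT_002402mg and SETIT_039206mg between TT8 and ISE36 (5.35 and 3.59), the latter not passed by edgeR.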

How the results depend on the processing

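In TT8 and ISE36 the 5 genes stayed called under every alternative run, except that DESeq2 called 3 in TT8 and gave the other 2 no adjusted p. In Hanevalval the count of 2 became 4 by DESeq2, 5 in one fit over 24 libraries and 0 to 5 with 1 library left out. Of the family genes, DESeq2 called 5 higher and 2 lower in Hanevalval, beside 5.04% and 9.51% of all genes it tested. Leaving out 1 library gave 0 to 5 higher and 0 to 3 lower there. In ISE36 it gave 1 to 2 lower (1 without mock replicate 3 or AMF replicate 2). For the response of TT8 against Hanevalval, 1 gene passed with a pseudocount of 0.5, the replicate block, edgeR or DESeq2, and 0 to 3 with 1 library left out. Against ISE36 4 passed with a pseudocount of 8 and 1 by edgeR, which lost SETIT_039206mg, and DESeq2 passed 1 between ISE36 and Hanevalval. For the AMF-treated level of TT8 against Hanevalval, 1 passed with a pseudocount of 0.5, 0 by DESeq2 and 0 to 3 with 1 library left out. Shares of all genes in these alternative fits between lines, and in most fits with 1 library left out, are not given here. Such counts are therefore not results about these genes alone. Directions turned for SETIT_019796mg in TT8 against ISE36 (response -4.25 by edgeR and -18.74 by DESeq2, which passed), where mock-treated ISE36 has 0 reads and the fitted value is no bound, and for SETIT_032400mg (-0.96 and -1.73). They also turned for the SETIT_028049mg response of ISE36 against Hanevalval (0.16 with a pseudocount of 0.5, 0.030 by CPM, 1.41 by edgeR, 1.55 by DESeq2, and -0.88 to 0.46 with 1 library left out). The AMF-treated level of SETIT_002402mg in TT8 against Hanevalval was -0.0034 by DESeq2 and -0.28 to 0.71 with 1 library left out. Spearman's rho kept 6 of 15 neighbours. The cause of these changes was not tested. Over all genes, Hanevalval calls (354 higher, 350 lower) became 1251 and 2358 by DESeq2, 285 and 480 by edgeR, 1962 and 2398 in one fit over 24 libraries, and 329 and 585 by CPM, which moved the median by -0.11. Replicate numbers were not taken as pairs, since the 12 same-number correlations were -0.15 to 0.19 and 5 of 12 were over 0.1. That 8 of 12 were highest with their own number is a hint of pairing from the data, not the design. A replicate block called 3 of the 5 genes and 885 higher and 982 lower genes in Hanevalval. Depth limits genes at 0 to 3 reads in mock-treated roots, whose folds are bounds or carry wide counting intervals.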
